A study of Mus musculus with 12 samples.

Results

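The cytoplasmic ribosomal protein genes were taken as the rows of the expression table whose symbol is Rpl or Rps followed by a number, with or without a closing a, l or x, together with Rplp0, Rplp1, Rplp2, Rpsa, Rps3a1, Rpl36al and Rpl22l1. This rule found 84 of 34745 rows, of which 51 encode proteins of the large subunit and 33 encode proteins of the small subunit. Poly(A) RNA was sequenced from 12 libraries of MLE-12, an immortalised mouse line derived from lung tumours and used as a model of the alveolar type II cell, the surfactant-producing cell of the air sac. All libraries were labelled 24 h, and each of the 4 groups held 3 libraries. The LPS group received 100 ng/mL lipopolysaccharide, a cell wall component of Gram-negative bacteria, in air with 21% oxygen. The Hyp group was kept at 85% oxygen with no lipopolysaccharide. The LPS + M2-Exo and Hyp + M2-Exo groups received the same injuries and then 10 µg/mL of exosomes, small secreted vesicles, from M2-polarised macrophages. No untreated library was analysed here, so the LPS and Hyp groups were set against each other, and they differed in agent and in oxygen together. The labels do not say whether libraries of a group came from separate cultures, so p-values measure only the spread between these libraries.

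The cytoplasmic ribosome joins a small subunit, which holds the messenger RNA and reads its codons, to a large subunit, which makes the peptide bond. Each subunit is built in the nucleolus from ribosomal RNA and a fixed set of proteins, most of which are needed in equal number, and proteins made in excess are broken down. The mRNAs of these proteins are among the most abundant in growing cells and typically begin with a run of pyrimidines that couples their translation to growth signals. Their genes have also left many processed pseudogenes, intron-free copies of the mRNA inserted elsewhere in the genome, which makes short reads from them hard to place.

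Total counts ran from 16021833 to 24074616 per library. Of the 84 genes, 83 had a count in at least 1 library and 81 passed the filter on low counts in each comparison but LPS + M2-Exo against LPS, where 80 passed. Rpl39l, a testis paralog of Rpl39, had 0 counts in all 12 libraries, and Rpl10l, a testis paralog of Rpl10, had 1 count in a single Hyp + M2-Exo library. A count of 0 allows up to 3 counts in a library, and this limit covers counting error only. Rps4l, a relative of Rps4x, had 0 counts in all 6 libraries with LPS, 9, 14 and 9 counts after hyperoxia alone and 2, 4 and 10 counts after hyperoxia with exosomes, and was not tested.

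Copies with their own row in the table are central to what can be read for these genes. In the GENCODE M21 transcripts (build GRCm38), 80 of the 84 genes shared at least one run of 50 bases with another gene. The table held 32 rows that share 20% or more of their 50-base runs, in each direction, with 1 of 25 ribosomal protein genes over 100000 bases away, and these are called copy rows below. GENCODE lists 14 of them as processed pseudogenes, 9 as transcribed processed pseudogenes, 7 as protein coding and 2 as lincRNA. Their identity to the coding bases of the gene ran from 96.1% to 100% with a median of 99.3%, and 8 were identical over all coding bases. In 14 cases the copy row held more counts than the gene itself. The first 150 coding bases of 3 genes are shown because most of the counts for each sequence sit in the copy row and not in the gene row.
Rpl12 and Gm10275: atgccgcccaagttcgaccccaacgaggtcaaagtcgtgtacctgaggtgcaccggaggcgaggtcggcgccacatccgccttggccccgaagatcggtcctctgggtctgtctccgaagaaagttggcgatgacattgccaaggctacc
Rps27 and Rps27rt: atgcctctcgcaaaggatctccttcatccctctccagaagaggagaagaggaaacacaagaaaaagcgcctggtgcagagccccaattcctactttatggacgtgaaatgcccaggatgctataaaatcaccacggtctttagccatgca
Rpl23a: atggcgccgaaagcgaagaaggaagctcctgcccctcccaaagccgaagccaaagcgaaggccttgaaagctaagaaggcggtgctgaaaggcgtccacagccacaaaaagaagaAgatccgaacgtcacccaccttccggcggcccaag
Rpl23a-ps3: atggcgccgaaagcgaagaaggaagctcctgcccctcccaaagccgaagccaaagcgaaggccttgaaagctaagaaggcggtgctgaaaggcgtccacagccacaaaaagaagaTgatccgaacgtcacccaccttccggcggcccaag

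The capital letters mark A116T, the only substitution between Rpl23a and Rpl23a-ps3 in this stretch, counted from 1 at the first coding base. Rpl12, a protein at the base of the large subunit stalk, lies in exons of chr2:32961559-32965345 on the plus strand (GRCm38), and its copy Gm10275 lies at chr10:29698746-29699380 on the minus strand with all 498 coding bases identical. Summed over the 12 libraries the Rpl12 row held 10788 counts and the Gm10275 row 140695. Rps27, a zinc-binding protein of the small subunit, lies at chr3:90212522-90213651 on the minus strand, and Rps27rt lies at chr9:114982371-114982740 on the minus strand with all 255 coding bases identical. The Rps27 row held 697 counts and the Rps27rt row 43121. Rpl23a, which sits near the exit of the peptide tunnel, lies at chr11:78180932-78183584 on the minus strand and Rpl23a-ps3 at chr14:34170655-34171168 on the plus strand, with 883 and 64898 counts. A read that lies wholly within identical bases could have come from either locus. How the authors' counting placed such reads is not given in the sources used here, so the levels of these genes and their copies are uncertain taken singly. In addition 22 of the 84 genes overlap another row of the table, 19 of them on the opposite strand, and without strand in the counting reads of such pairs cannot be told apart.

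The stretch around the start site is shown for 8 genes from RefSeq (GRCm38.p6), running from 60 bases before to 20 bases from the annotated start. Capitals mark at least 7 bases in a row that are all C or T and lie within 10 bases either side of the start, where 5 of these genes have such a run and 3 do not. Runs outside that window, or the part of a run beyond it, are left in lower case.
Rps6 (chr4:86857348-86857427, minus strand): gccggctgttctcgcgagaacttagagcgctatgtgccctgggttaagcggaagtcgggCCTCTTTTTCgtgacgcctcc
Rps18 (chr17:33955646-33955725, minus strand): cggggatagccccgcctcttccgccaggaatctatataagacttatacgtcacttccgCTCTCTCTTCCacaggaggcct
Rps15a (chr7:118116128-118116207, minus strand): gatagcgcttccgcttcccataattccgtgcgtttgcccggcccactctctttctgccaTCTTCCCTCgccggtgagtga
Rpl22l1 (chr3:28805448-28805527, plus strand): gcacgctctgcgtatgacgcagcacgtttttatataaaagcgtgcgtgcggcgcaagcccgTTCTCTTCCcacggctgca
Rps27l (chr9:66946026-66946105, plus strand): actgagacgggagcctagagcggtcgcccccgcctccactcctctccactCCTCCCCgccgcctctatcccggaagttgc
Rps4x (chrX:102189372-102189451, minus strand): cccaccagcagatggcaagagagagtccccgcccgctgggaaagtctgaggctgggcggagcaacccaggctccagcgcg
Rpl39 (chrX:37085203-37085282, minus strand): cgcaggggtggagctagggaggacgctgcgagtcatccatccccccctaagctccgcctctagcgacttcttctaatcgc
Rplp0 (chr5:115559407-115559486, plus strand): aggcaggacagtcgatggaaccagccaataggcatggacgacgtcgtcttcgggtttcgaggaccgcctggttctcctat

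A run of at least 7 bases that are all C or T, read on the strand of the gene within 10 bases either side of the annotated start, and counted only as far as it lies in that window, was present at 28 of 75 start entries of ribosomal protein genes (37.3%), which covered 63 of the 84 genes. The same search found it at 4000 of 32851 start entries of all genes (12.2%). The share was 39.1% for the large subunit and 34.5% for the small subunit. A match is a description of these letters in this window, and runs elsewhere in the stretch, such as those in Rpl39 and Rplp0, were not counted.

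Levels between genes were compared per length, as the deposited FPKM (fragments per kilobase of gene length, scaled to library size). The highest means over the 12 libraries were 930 for Rpl8, a core protein close to the peptide-forming centre, 922 for Rpl4, which lines the peptide tunnel, and 798 for Rplp1 and 651 for Rplp0, both of the stalk that recruits elongation factors. Rpl8 and Rpl4 lay close together, at 918 ± 24.5 (SD, n = 3) and 946 in the LPS group and at 909 ± 62.2 and 899 in the Hyp group, where Rpl8 was above Rpl4 in Hyp library 1 only. At the other end stood Rps27 (0.970), Rps13 (0.446), Rpl3l (0.394), Rps4l (0.104) and Rpl10l (0.00403). Genes that share less than 20% of their 50-base runs with others had a median FPKM of 41.2 (17 genes), those sharing 20% to 50% had 38.7 (37 genes) and those sharing 50% or more had 16.5 (28 genes). Over these 82 genes the Spearman correlation of the share with mean FPKM was only -0.10, and -0.21 for runs of 100 bases. The length that the counts and FPKM together imply exceeded the span of the gene in 32 of 83 genes, so FPKM of those genes are on an uncertain length.

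Ribosomal protein mRNA took a larger share of all counts in the LPS groups than in the Hyp groups. The share was 1.96%, 1.97% and 1.95% in the LPS libraries and 1.57%, 1.58% and 1.61% in the Hyp libraries. With exosomes it was 1.94%, 1.96% and 1.96% after LPS, and 1.66%, 1.66% and 1.63% after hyperoxia. No library of an LPS group overlapped a library of a Hyp group, and all 3 Hyp + M2-Exo libraries lay above all 3 Hyp libraries. In bulk libraries fewer cells of a type and less of an RNA per cell cannot be told apart. The large subunit took 1.10% to 1.12% of counts in LPS and 0.935% to 0.956% in Hyp, and the small subunit took 0.843% to 0.852% and 0.635% to 0.655%. The ratio of large to small subunit counts was 1.30, 1.33 and 1.32 in LPS, against 1.46, 1.48 and 1.46 in Hyp, and its group means were 1.30 ± 0.00106 (SD, n = 3) in LPS + M2-Exo and 1.48 ± 0.0134 in Hyp + M2-Exo. With the copy rows added the share rose to a group mean of 2.66% in LPS, 2.66% in LPS + M2-Exo, 2.16% in Hyp and 2.25% in Hyp + M2-Exo, and the ratio to 1.45, 1.43, 1.56 and 1.58. With only the rows named as a pseudogene of a listed gene added, such as Rps2-ps10, the ratio was 1.305 in LPS and 1.287 in LPS + M2-Exo. It was 1.391 in Hyp and 1.411 in Hyp + M2-Exo, a smaller gap than in the gene rows alone. In each version both Hyp groups lay below both LPS groups in share and above them in ratio. These sums weigh genes by their counts, and medians of the change per gene are given below.

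**Figure D1:**
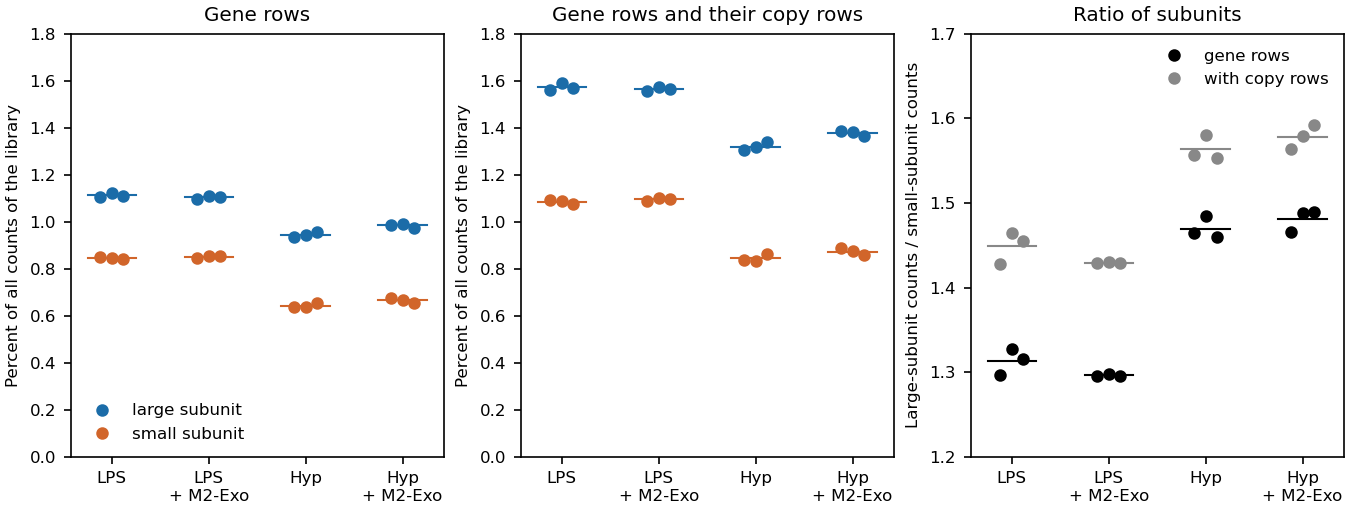
Percent of all counts in ribosomal protein genes of the large and of the small subunit, per library, from the gene rows alone and with copy rows added, and the ratio of large to small subunit counts. Each point is a library of the group named on the axis; the LPS libraries lie between 1.30 and 1.33 in the ratio of the gene rows and the Hyp libraries between 1.46 and 1.48.

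The comparison of LPS against Hyp asked how the ribosomal protein mRNAs differ between the inflammatory and the oxygen injury. Of 81 genes tested, 61 were higher in LPS and 5 lower at an adjusted p under 0.05 (edgeR quasi-likelihood test with Benjamini-Hochberg adjustment over all genes). Among all 13805 genes tested 75.8% passed in either direction, 37.8% higher and 38% lower, so the share of ribosomal protein genes that passed (81.5%) was close to the background, while most of theirs were in the direction of LPS. The median log2 fold change was 0.44 for the ribosomal protein genes and -0.01 for all genes, and 74 of the 81 lay above 0, against 49.4% of all genes. By subunit, 38 of 49 large subunit genes were higher and 3 lower, with a median of 0.43, and 23 of 32 small subunit genes were higher and 2 lower, with a median of 0.49. At a change of at least 0.5, 33 were higher and 4 lower, against 25.4% and 23.2% of all genes. The changes were mostly modest, and a rise of at least 1 was seen in 5 genes (13.7% of all genes), namely Rpl29, Rps2, Rpl39, Rpl22l1 and Rps4x. The groups did not overlap in 66 genes, against 78.7% of all genes. The median was 0.42 in genes sharing less than 20% of their 50-base runs, 0.44 in those sharing 20% to 50% and 0.45 in those sharing more.

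Marker genes of other cell types also differed between these groups. The summed level of 15 rows of macrophage markers, among which Itgam has 2 rows, was 354 to 391 CPM (counts scaled to library size with TMM factors) in LPS, 283 to 320 in LPS + M2-Exo, 76.2 to 82.2 in Hyp and 62.2 to 89.0 in Hyp + M2-Exo. Of 11 tested in LPS against Hyp, 9 were higher and 1 lower, and Chil3 was at 0 in all libraries. Among all genes 37.8% were higher and 38% lower, which is the background for each marker list here. The summed level of 10 alveolar type II markers was 428 to 440 in LPS and 249 to 263 in Hyp, with Sftpa1 and Sftpd at or near 0 in all groups. Most of that sum was Abca3, at 194 to 203 in LPS and 148 to 153 in Hyp, and Nkx2-1, at 171 to 174 and 37.8 to 41.7. Of 7 tested, 5 were higher in LPS, with the largest log2 fold changes in Nkx2-1 (2.13) and Napsa (2.03), and 2 were lower. The surfactant gene Sftpc, which defines the type, lay at 21.5 to 23.3 in LPS and 10.5 to 12.1 in Hyp, while the surfactant gene Sftpb (log2 fold change -1.62) and Etv5 (-0.50) were lower in LPS. The 6 epithelial markers summed to 656 to 696 in LPS and 875 to 893 in Hyp, and most of that sum was Krt19, at 479 to 521 and 733 to 744 (-0.57). The other 3 epithelial markers tested, Cdh1 (2.25), Epcam (0.83) and Krt8 (0.14), were higher in LPS, and Cldn7 was at 0. The 6 fibroblast markers summed to 817 to 843 in LPS and 330 to 357 in Hyp, with 4 higher and 0 lower by edgeR, and nearly all of that sum was Dcn, at 778 to 800.3 and 318 to 345. Mitochondrially encoded genes took 3.62% to 4.17% of counts in the LPS groups and 2.62% to 2.92% in the Hyp groups. The part of these differences in the ribosomal protein result was not tested.

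**Figure D2:**
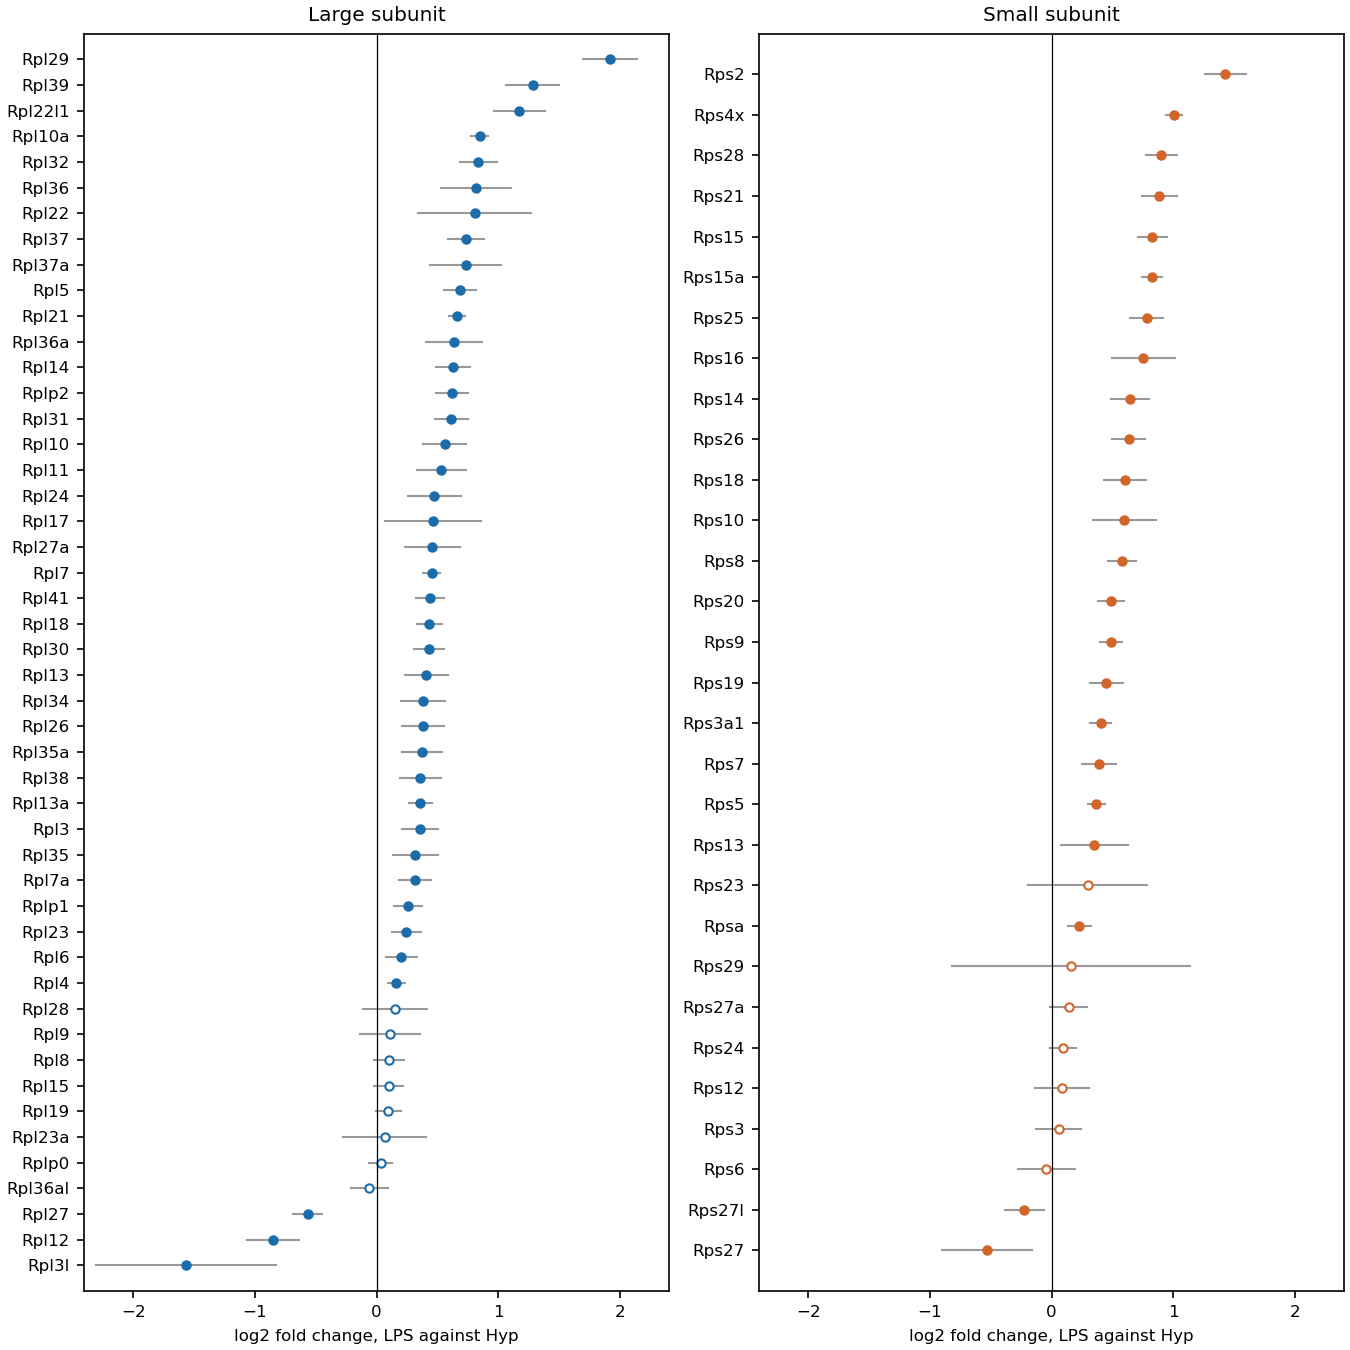
Log2 fold change of LPS against Hyp for ribosomal protein genes tested, with the 95% interval, large subunit and small subunit in separate panels. Filled points have an adjusted p under 0.05, and values above 0 are higher in LPS; a few genes tested are not shown. Most filled points lie above 0, with Rpl29 at 1.92 and Rpl3l at -1.56.

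Among large subunit genes Rpl29, Rpl39 and Rpl22l1 had the largest rises in LPS. Rpl29, a small protein of the subunit surface (chr9:106429454-106431568, plus strand), was at 25.5, 24.9 and 25.3 CPM in the LPS libraries and 6.57, 5.88 and 7.58 in the Hyp libraries. The groups did not overlap, and the log2 fold change was 1.92 (SE 0.10, adjusted p = 6.8e-07 by edgeR). Rpl39, a short protein in the wall of the peptide tunnel, was at 68.8, 61.0 and 57.8 CPM in LPS and 24.6, 28.8 and 23.8 in Hyp. Its change was 1.28 (SE 0.09, edgeR adjusted p = 5.44e-06), with no overlap. Rpl22l1, the paralog of Rpl22, was at 22.3, 22.0 and 19.8 CPM in LPS and 9.87, 10.1 and 8.50 in Hyp, a change of 1.17 (SE 0.09, edgeR adjusted p = 7.76e-06).

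Rpl22 itself, an RNA-binding protein that is not needed for the bulk of translation, was at 183.5, 95.2 and 142.8 CPM in LPS and 84.0, 79.7 and 77.3 in Hyp. Its groups did not overlap although the second LPS library lay far below the others, and the change was 0.81 (SE 0.20, edgeR adjusted p = 0.00636; limma on unfiltered FPKM gave 0.0507). Rpl10a, a protein of the stalk opposite the Rplp proteins, was among the steadiest, at 286, 295 and 296 CPM in LPS and 163, 162 and 163 in Hyp (0.85, SE 0.03, edgeR adjusted p = 1.26e-07). Rpl32 was at 671, 575 and 692 CPM in LPS and 363, 364 and 359 in Hyp, a change of 0.83. Rpl36 (0.81), Rpl37 (0.74) and Rpl37a (0.73) of the large subunit also rose, and none of these overlapped between groups.

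In the small subunit the largest rise was in Rps2, a protein near the path by which mRNA enters (chr17:24718116-24721929, plus strand). It was at 98.8, 96.3 and 89.2 CPM in LPS and 36.5, 31.7 and 37.6 in Hyp, a change of 1.42 (SE 0.07, edgeR adjusted p = 7.77e-07), which turned when its copy rows were added, as given below. Rps4x, an X-linked protein of the subunit surface (chrX:102184941-102189394, minus strand), was at 714, 724 and 718 CPM in LPS and 354, 353 and 365 in Hyp. The change of 1.01 (SE 0.03) had the smallest adjusted p of all the ribosomal protein genes (5.77e-08, edgeR). Rps28, a small protein close to the mRNA exit, was at 110, 110 and 101 CPM in LPS and 55.2, 60.7 and 55.7 in Hyp (0.90).

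Rps21, at 110, 97.7 and 96.3 CPM in LPS and 52.7, 58.0 and 53.6 in Hyp, changed by 0.89 with no overlap. Rps15 (0.83), Rps15a (0.82), Rps25 (0.78) and Rps16 (0.75) followed.

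The genes of the stalk proteins are given side by side, and differences between their changes were not tested. Rplp0, the scaffold of the stalk, was at 1756, 1886 and 1815 CPM in LPS and 1735, 1766 and 1831 in Hyp, groups that overlapped (0.03, SE 0.04, edgeR adjusted p = 0.477). Rplp1, at 432, 410 and 409 against 327, 349 and 372, was higher in LPS by 0.26 (SE 0.05, edgeR adjusted p = 0.00167; limma on unfiltered FPKM gave 0.0643). Rplp2, at 241, 243 and 232 against 142, 167 and 158, was higher by 0.62 (SE 0.06, edgeR adjusted p = 2.17e-05). Rplp1 and Rplp2 form the dimers that Rplp0 carries.

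Several of the genes have known roles beside translation, and they are given here one by one. Rpl5 and Rpl11, which bind Mdm2 when ribosome assembly fails and so stabilise p53, changed by 0.69 and 0.53 with edgeR adjusted p = 1.24e-05 and 0.000662. Rpl5 was at 93.0, 86.2 and 91.7 CPM in LPS and 52.4, 59.2 and 56.6 in Hyp. Rpsa, also known as a laminin receptor precursor, was at 1195, 1218 and 1252 CPM in LPS and 1034, 1003 and 1088 in Hyp (0.23, edgeR adjusted p = 0.00104). Rps19, often mutated in Diamond-Blackfan anaemia, changed by 0.45, Rps20 by 0.49 and Rpl10, a late-joining protein of the large subunit, by 0.56. Rps6, the target of the S6 kinases, was at 9.12, 9.03 and 8.36 CPM in LPS and 8.26, 10.1 and 8.94 in Hyp, with overlapping groups (-0.04, SE 0.10, edgeR adjusted p = 0.708). Rps3, which also acts in DNA repair, was at 683, 548.5 and 678 against 598, 616 and 621 (0.06, edgeR adjusted p = 0.527), and Rps27a, made as a fusion with ubiquitin, gave 0.14 (edgeR adjusted p = 0.0824).

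Of the genes that passed the adjusted test in edgeR, 5 were lower in LPS than in Hyp. Rpl3l, the muscle paralog of Rpl3 (chr17:24727820-24736143, plus strand), was near the detection limit, with 5, 5 and 9 counts in LPS and 26, 19 and 29 in Hyp (-1.56, SE 0.32, edgeR adjusted p = 0.00237). Rpl12 was at 26.6, 29.7 and 32.1 CPM in LPS and 51.2, 49.4 and 58.6 in Hyp (-0.85, SE 0.09, edgeR adjusted p = 6.07e-05). Rpl27, also of the large subunit, was at 25.1, 26.0 and 26.0 against 37.0, 38.5 and 38.5 (-0.57, SE 0.05, edgeR adjusted p = 2.16e-05). Rps27 was at 2.14, 2.10 and 2.48 CPM against 3.22, 2.85 and 3.61 (-0.53, SE 0.16, edgeR adjusted p = 0.0161), and its paralog Rps27l, a p53 target, at 53.2, 49.6 and 49.8 against 56.6, 65.3 and 56.3 (-0.22, SE 0.07, edgeR adjusted p = 0.0177). Of these, Rpl12, Rpl27 and Rps27 are genes whose copy rows hold most of the counts. The Rps27 call was lost without LPS library 1, LPS library 2 or Hyp library 3 (edgeR adjusted p from 0.0501 to 0.0567) or with DESeq2 (0.0862), the Rps27l call without LPS library 2 or 3 (0.0587 and 0.0552) or with the length trend removed (-0.10, 0.200), and the Rps13 rise (0.35, edgeR adjusted p = 0.0257) without LPS library 1 or 2 or Hyp library 1 or 3 (0.0641 to 0.0803). The Rps13 call was also lost with the replicate block (adjusted p = 0.0539), library-size scaling (0.0770) and DESeq2 (0.177). Rpl17 (0.46, edgeR adjusted p = 0.0352), whose groups overlapped, kept its call in 2 of 6 fits that left out a library.

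Paralog pairs kept their order of level in all 4 groups. Mean FPKM in LPS and Hyp was 21.0 and 17.5 for Rpl3 and 0.196 and 0.623 for Rpl3l, so that Rpl3l stayed far below Rpl3 while the pair changed in opposite directions (0.36 and -1.56). Rpl22 (21.5 and 13.1) lay above Rpl22l1 (4.65 and 2.20), and both were higher in LPS. Rpl36al (16.2 and 17.9) lay above Rpl36a (3.57 and 2.45), and only Rpl36a passed the test, at 0.63 against -0.06 for Rpl36al. Rps27l (26.0 and 32.3) lay above Rps27 (0.753 and 1.15), but the Rps27rt row, identical to Rps27 in coding sequence, held most reads of the Rps27 sequence. Whether the members of a pair changed by different amounts was not tested.

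The copy rows turned the direction of 4 genes. Rps2 and its copies together were lower in LPS, by -0.13 (SE 0.04, edgeR adjusted p = 0.0270), since the Rps2-ps10 row, with 149209 counts to 14419 for Rps2, was at 544, 519.5 and 547 CPM in LPS and 646.5, 625 and 694 in Hyp. The Rps2 row held 15% of the sum in LPS and 5.09% in Hyp. Rpl12 with its copy was higher in LPS by 0.21 (edgeR adjusted p = 0.0025), as Gm10275 was at 633, 644 and 645 CPM in LPS and 508, 511 and 558 in Hyp. The Rpl12 row held 4.39% of the sum in LPS and 9.16% in Hyp. Rpl27 with Rpl27-ps3 was higher by 0.29 (edgeR adjusted p = 7.04e-05), and Rps27 with Rps27rt by 0.88 (edgeR adjusted p = 1.01e-06), with Rps27rt at 246, 234 and 216 CPM in LPS and 121, 127 and 124 in Hyp. In these 4 genes the row of the gene and the row of its copy moved in opposite directions between LPS and Hyp.

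Other genes kept their direction. Rpl29 with its copies changed by 2.02 and Rpl22l1 by 1.52. Rpl23a, at 0.07 alone with edgeR adjusted p = 0.698, changed by 0.83 with its copy (edgeR adjusted p = 4.45e-07), and Rpl9, at 0.11 alone, changed by 0.27 (edgeR adjusted p = 0.000266). Rplp0 stayed at 0.03 (edgeR adjusted p = 0.465), its row holding 62.2% of the sum in LPS and in Hyp. Over all 81 genes with copies summed, 66 were higher and 3 lower (Rpl3l, Rps2 and Rps27l), against 37.7% and 38% of all genes tested so. Of the 25 genes with a copy row, 21 passed alone and 24 with the copies, 17 of them in the same direction and 4 in the opposite one. The 56 genes with no copy row had 43 higher, 2 lower and a median of 0.45. Of 1431 other genes in GENCODE that share a 50-base run with a ribosomal protein gene, 329 had a row in the table. A gene with no copy row can therefore still share sequence with copies that have no row, and the part of such copies was not tested.

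**Figure D3:**
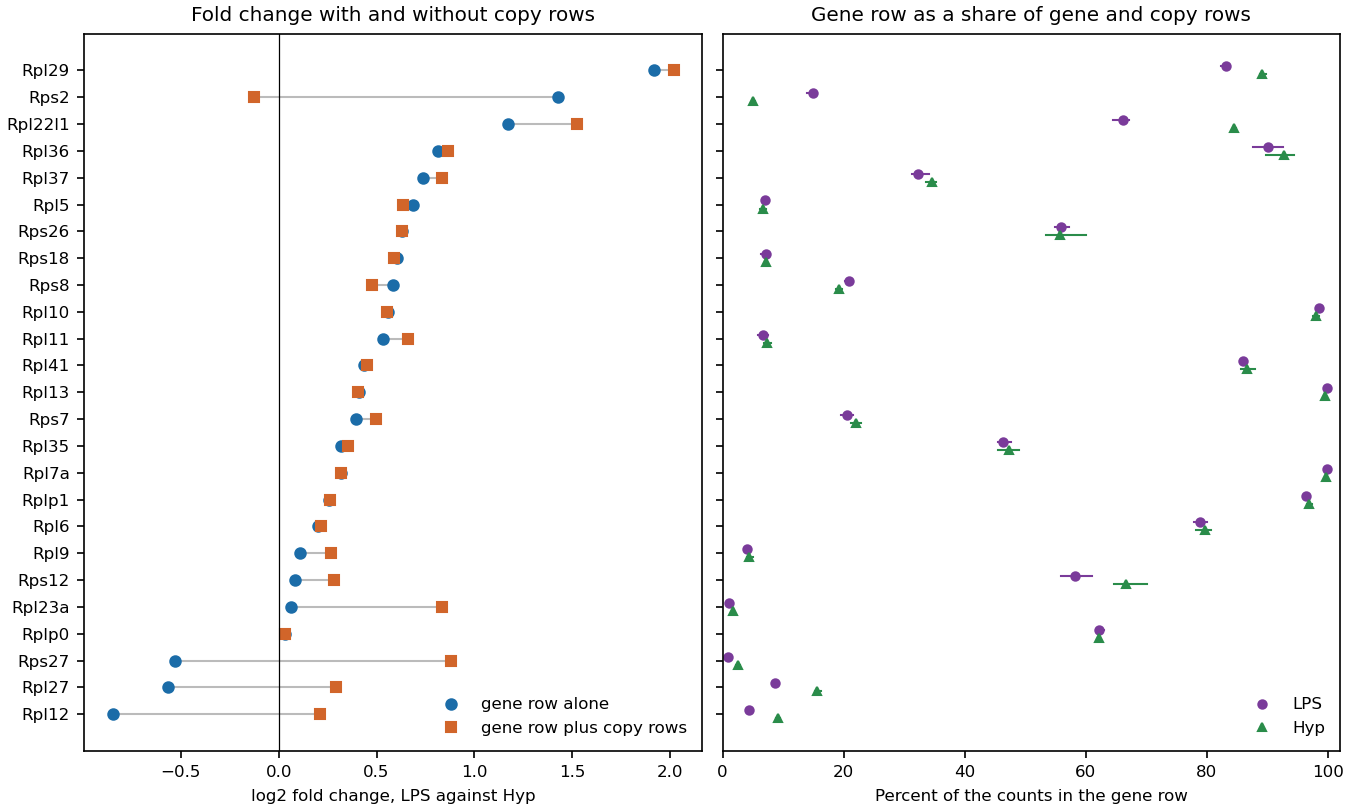
Left, log2 fold change of LPS against Hyp for the gene row alone and for the gene plus its copy rows, for the genes with a copy row; right, the percent of the gene-plus-copy counts that sits in the gene row in the LPS and Hyp libraries, as mean with range. Rps2, Rpl12, Rpl27 and Rps27 lie on opposite sides of 0 in the 2 versions.

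**Figure D4:**
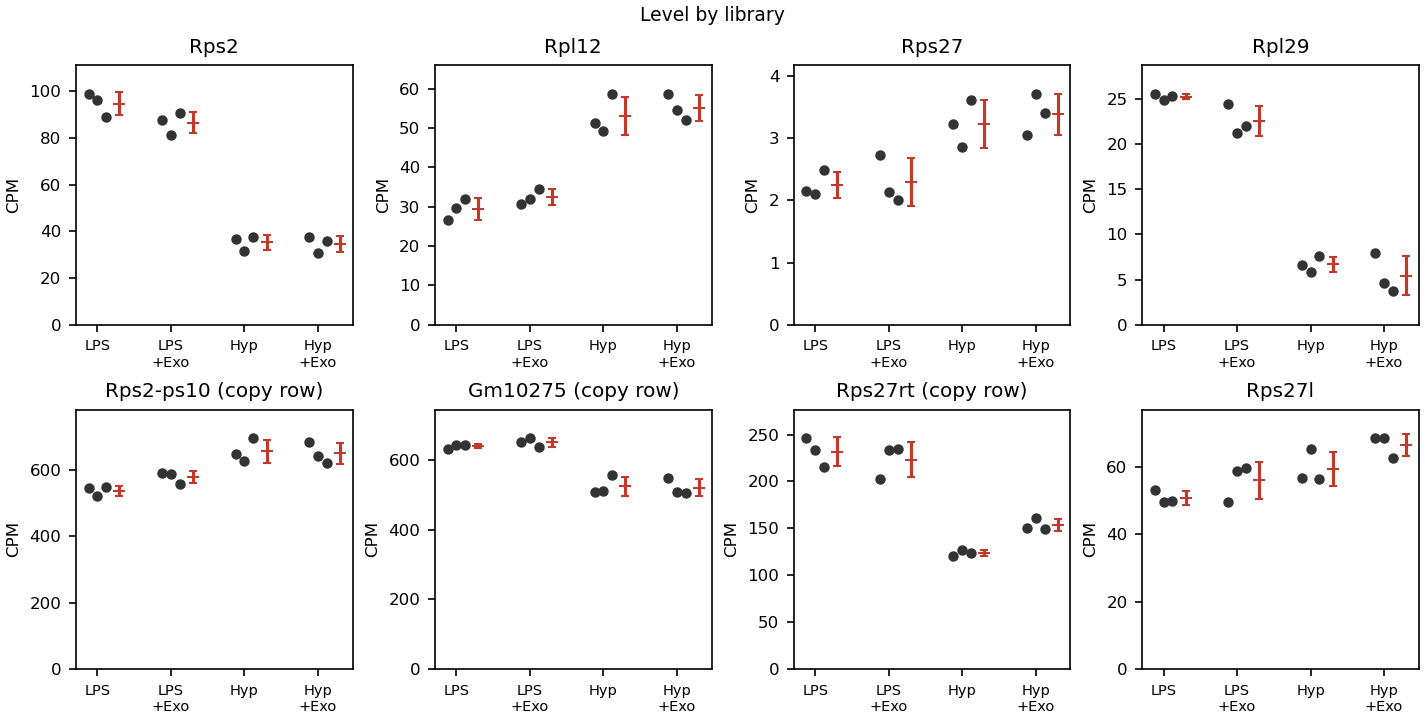
CPM in each of the 12 libraries for Rps2 and Rps2-ps10, Rpl12 and Gm10275, Rps27 and Rps27rt, Rpl29 and Rps27l; points are libraries and red bars are group means ± SD. The gene rows of Rpl12 and Rps27 are higher in the Hyp groups, and their copies are lower there.

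With exosomes present in both injuries the pattern was much the same. In LPS + M2-Exo against Hyp + M2-Exo 56 of 81 genes were higher and 5 lower (edgeR, adjusted p under 0.05), against 36.5% and 37.1% of 13660 genes tested, or 73.7% in either direction. The median log2 fold change was 0.39, against -0.01 for all genes, and 74 lay above 0, against 49.5% of all genes. A change of at least 0.5 was seen in 29 genes upward and 4 downward, against 25.4% and 23.8%. The large subunit had 33 higher and 3 lower with a median of 0.36, and the small subunit 23 higher and 2 lower with a median of 0.44. These libraries are separate from the ones above, and 54 genes were higher and 5 lower in both comparisons, while 13 passed in neither. The matching joint count over all genes was not made. Taken singly, 75.8% of all genes passed without exosomes and 73.7% with them. Rpl23, Rpl35, Rpl36, Rpl38, Rpl7a, Rplp1 and Rps13 passed, as higher, only without exosomes, and Rpl15 and Rps27a only with them. None of these 9 passed the adjusted test of a difference in exosome effect between the injuries, which is given further on. With its copy row summed Rpl35 also passed with exosomes, at 0.18 (edgeR adjusted p = 0.0318), against 0.02 alone (edgeR adjusted p = 0.862).

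The leading genes were the same in kind. Rpl29 was at 24.4, 21.2 and 22.0 CPM in LPS + M2-Exo and 7.92, 4.64 and 3.78 in Hyp + M2-Exo, a change of 2.04 (SE 0.23, edgeR adjusted p = 8.26e-05). Rps2 (1.32), Rpl39 (1.08), Rpl22 (1.06), Rps4x (0.96), Rpl22l1 (0.86) and Rpl10a (0.86) followed, none with overlapping groups. Rpl22 was here at 151, 178 and 149 CPM against 72.9, 83.8 and 73.2, with no library apart from the rest. Rps18 changed by 0.78 and Rps15a by 0.79. With its copy rows summed Rps18 changed by 0.42, its own row holding 7.18% of the sum in LPS + M2-Exo and 5.57% in Hyp + M2-Exo. In the stalk, Rplp0 (0.00, edgeR adjusted p = 0.984) and Rplp1 (0.12, edgeR adjusted p = 0.0606) did not pass and Rplp2 did (0.62). Rpl3l (-1.65), Rpl12 (-0.76), Rps27 (-0.56), Rpl27 (-0.56) and Rps27l (-0.25) were lower.

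Single libraries decided a few of these calls. Rps27 (edgeR adjusted p = 0.0218) lost it without LPS + M2-Exo library 2 or 3 or Hyp + M2-Exo library 2 (up to 0.0821), Rps27l (0.0225) without LPS + M2-Exo library 1 or Hyp + M2-Exo library 1 or 2 or with the length trend removed (-0.11, 0.238), Rpl4 (0.11, 0.0382) without LPS + M2-Exo library 1 or 3 or Hyp + M2-Exo library 2 or 3, and Rps27a (0.21, 0.0340) without LPS + M2-Exo library 1 or 2 or Hyp + M2-Exo library 2 or 3. Library-size scaling also ended the calls of Rpl4 (0.02, adjusted p = 0.659) and Rps27a (0.12, 0.181), as did limma on FPKM, and leaving out the filter on low counts gave 0.0543 and 0.0538. A minimum of 10 counts in every library gave Rpl4 0.0552. Rps27 was also lost with DESeq2 (0.0823), the replicate block (0.0516) and the length trend removed (0.0536). Rpl6 (0.16, 0.0300) kept its call in 2 of 6 fits that left out a library. With copies summed, 62 were higher and 2 lower (Rpl3l and Rps27l), against 36.6% and 37.1% of all genes. Rpl12 (0.25), Rpl27 (0.33) and Rps27 (0.53) were then higher in LPS + M2-Exo, and Rps2 was at -0.04 and no longer passed.

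The comparison of Hyp + M2-Exo against Hyp asked what exosomes added to the oxygen injury. None of 81 ribosomal protein genes passed an adjusted p under 0.05 by edgeR, against 0.101% of 13815 genes tested. At an unadjusted p under 0.05, 17 passed, all higher with exosomes, against 8.48% of all genes in either direction and 3.83% higher. They included Rps21, Rpl32, Rps28, Rps25, Rplp1, Rps15, Rpl22l1, Rps20, Rps14, Rpl31, Rpl18, Rpl41, Rpl7, Rpl35 and Rps19, and in all 8 were of the large and 9 of the small subunit. DESeq2 called 2 (37 among all genes), Rps21 (0.33, adjusted p = 0.00335) and Rpl32 (0.22, adjusted p = 0.0299). In 20 genes the groups did not overlap, 19 of them higher with exosomes, where 16% of all genes did not overlap and 8.88% were higher. The median change was 0.05, and 58 of 81 lay above 0, against 49.3% of all genes.

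Rps21 was at 52.7, 58.0 and 53.6 CPM in Hyp and 70.4, 68.7 and 67.9 in Hyp + M2-Exo, with no overlap (0.33, SE 0.05, edgeR adjusted p = 0.197). Rpl32 was at 363, 364 and 359 against 420, 449 and 400.3 (0.22, SE 0.04, edgeR adjusted p = 0.387). Both genes were higher in every exosome library than in every library without, by an amount that did not pass the adjusted test over all genes in edgeR. The 95% interval of the change lay within 0.5 of 0 on the log2 scale for 73 of the 81 genes.

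In LPS + M2-Exo against LPS none of 80 genes passed by edgeR, against 0.187% of 13353 genes tested, 0 passed at an unadjusted p under 0.05, against 11.1%, and DESeq2 called 0 (125 among all genes). The groups did not overlap in 3 genes, against 17.2% of all genes. The nearest to the threshold was Rpl29 (-0.16, SE 0.07, edgeR adjusted p = 0.454), with the CPM given above. Rpl15, at 56.5, 60.6 and 59.8 CPM in LPS and 64.9, 61.2 and 65.6 with exosomes, changed by 0.12 (edgeR adjusted p = 0.459), and Rps2 by -0.13 (edgeR adjusted p = 0.465), which turned to 0.07 with its copy rows summed. The median change was 0.02 (0.0034 without LPS library 3, 0.030 without LPS library 1 and 0.041 with the length trend removed), 50 of 80 lay above 0, against 51.1% of all genes, and 76 of 80 intervals lay within 0.5 of 0. With copy rows summed 0 genes passed in either exosome comparison by edgeR, against 0.102% of all genes in Hyp and 0.195% in LPS.

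The exosome effect in LPS was tested against that in Hyp directly. Of 81 genes 0 passed in edgeR, against 0.0352% of 14187 genes tested, and DESeq2 called 0 (67 among all genes). At an unadjusted p under 0.05, 9 passed, against 9.78% of all genes. The difference was above 0 for Rpl15 (0.21) and below 0 for the other 8, among them Rpl36 (-0.46), Rps14 (-0.35), Rpl32 (-0.32, edgeR adjusted p = 0.281), Rps21 (-0.27), Rpl31, Rpl19 and Rpl35. Rps14, a protein of the small subunit platform, was at 464, 455 and 455 CPM in LPS and 361, 411 and 461 in LPS + M2-Exo, against 327, 286 and 267 in Hyp and 350.0, 336 and 322 in Hyp + M2-Exo.

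**Figure D5:**
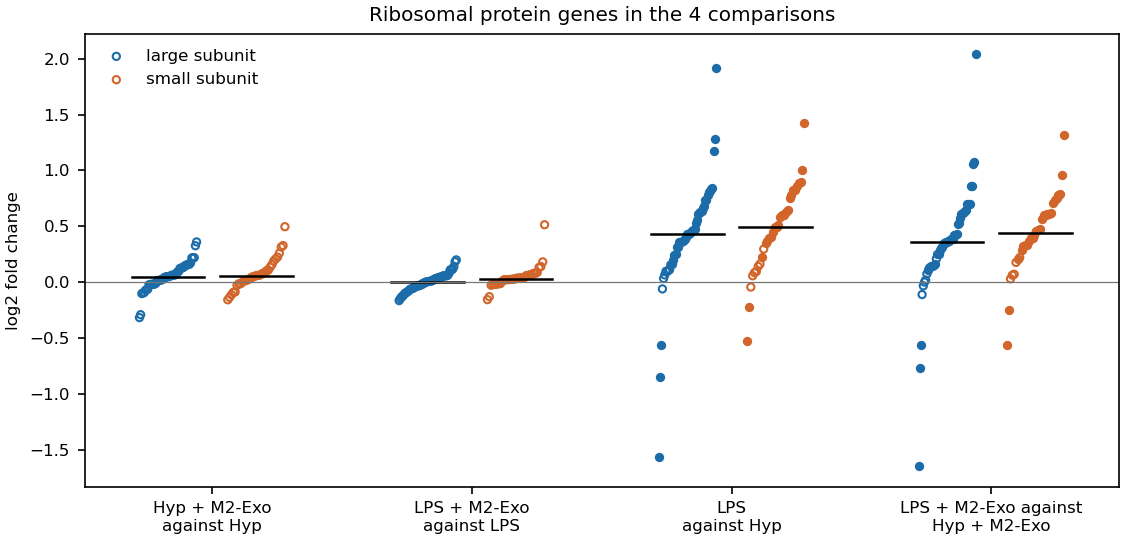
Log2 fold change of each ribosomal protein gene in the comparisons, large and small subunit side by side. Filled points have an adjusted p under 0.05, and black lines are the medians of each subunit. Large and small subunit medians lie at 0.43 and 0.49 in LPS against Hyp, and at 0.36 and 0.44 in LPS + M2-Exo against Hyp + M2-Exo. They lie at 0.050 and 0.058 in Hyp + M2-Exo against Hyp, and at 0.0049 and 0.033 in LPS + M2-Exo against LPS.

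Genes with a pyrimidine run at an annotated start and genes without it had close medians, and the difference was not tested. In LPS against Hyp the 27 tested genes with a run had 19 higher and 3 lower with a median of 0.38, and the 34 without had 26 higher and 2 lower with a median of 0.42. Rps6 and Rps27l carry a run, shown above, with changes of -0.04 and -0.22, while Rps18 and Rps15a also carry it, with 0.60 and 0.82. Rps4x and Rpl39, with no run within 10 bases of the start, changed by 1.01 and 1.28.

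The other genes of the ribosome and its making were read against the 37.8% of all genes higher and 38% lower in LPS against Hyp. Of 118 ribosome biogenesis genes tested, which process and assemble the subunits, 3 were higher in LPS and 102 lower, with a median of -0.65 (Surf6 -1.70, Utp14a -1.49, Rrp12 -1.39, Utp15 -1.39; Exosc5 0.39, Nsa2 0.32, Xpo1 0.11). Of 77 mitochondrial ribosomal protein genes 5 were higher and 60 lower, with a median of -0.41, including Mrps18b (-1.15) and Mrps22 (-1.07), with Mrps21 (0.69) among the higher. Of 43 genes of RNA polymerases I and III, which make ribosomal and transfer RNA, 10 were higher and 30 lower, with Maf1, a repressor of polymerase III, at 1.43 and Polr1e at -1.17. Of 45 genes listed as translation factors or as other transcripts of the pyrimidine-run class, 20 were higher and 18 lower, with a median of 0.06. These shares were near those of all genes, and runs at the starts of this list were not counted. Hnrnpa1 (0.90) and Eef1a1 (0.88) were among the higher and Snhg1 (-1.29) among the lower. The median of the cytoplasmic ribosomal protein genes was above 0 and those of biogenesis factors and mitochondrial ribosomal proteins below it.

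Of 43 genes of ribosome stress and quality control 13 were higher and 22 lower, with a median of -0.29. Cdkn1a, a p53 target that halts the cell cycle, gave -2.92 and Mdm2 -0.98, while Trp53 gave 0.46. Zak, the collision-sensing kinase, gave 0.21 (edgeR adjusted p = 0.00082) and Mapk14, a kinase downstream of it, -0.55 (edgeR adjusted p = 0.123). Mapk14 was at 59.6, 55.2 and 63.5 CPM in LPS and 44.9, 105.9 and 110.6 in Hyp. Hyp library 1 thus lay below all LPS libraries and the other Hyp libraries above them. A list of 7 related genes outside the name rule was also read, and not all of them encode ribosomal proteins. Of these 4 were higher (Rps27rt 0.90, Gnb2l1 0.80, Fau 0.37, Rpl9-ps6 0.28) and 3 lower, among them Rps19bp1 (-0.99) and Rpl7l1 (-0.20). Rps27rt and Rpl9-ps6 are also copy rows. In LPS + M2-Exo against Hyp + M2-Exo, where 36.5% of all genes were higher and 37.1% lower, the counts were 4 higher and 100 lower for biogenesis, 7 and 53 for mitochondrial ribosomal proteins, 7 and 27 for polymerases I and III, 20 and 17 for translation factors and 15 and 24 for ribosome stress. In the exosome comparisons a single gene of these lists passed, Rsl24d1, a factor of large subunit assembly. Among all genes 0.101% passed in Hyp + M2-Exo against Hyp and 0.187% in LPS + M2-Exo against LPS. Rsl24d1 was at 27.0, 28.4 and 26.0 CPM in Hyp and 55.9, 57.2 and 57.6 in Hyp + M2-Exo (1.06, edgeR adjusted p = 0.000319). In the LPS libraries Rsl24d1 was at 45.8, 17.5 and 39.4 CPM and in the LPS + M2-Exo libraries at 22.6, 40.4 and 19.2, groups that overlapped.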

How the data were processed

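RNA from 12 MLE-12 libraries, 3 in each of 4 groups, was sequenced by the authors. They deposited a table of 34745 genes with raw read counts per library and, beside them, FPKM values made from the same counts. The submitters' processing notes name HISAT2 2.0.4, StringTie 1.3.0, edgeR and build GRCm38. The annotation, the counting program, the strand setting and the handling of reads with several matches are not given in the sources used here. The ribosomal protein genes and all gene lists were chosen with earlier results of these data known.

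The counts were tested with edgeR 4.0.16 in R 4.3.3 (TMM scaling, filterByExpr, quasi-likelihood F test, Benjamini-Hochberg adjustment over all genes tested, threshold 0.05) on the 6 libraries of each comparison. The difference of exosome effects was tested on all 12 libraries. The standard error was the absolute log2 fold change divided by the square root of F. CPM are counts scaled by TMM over the 12 libraries. FPKM were used only for levels between genes and, with limma 3.58.1, as an alternative. The code was tested on simulated data. Shared runs of 50 bases were counted over GENCODE M21 transcripts, and starts were taken from RefSeq. Total counts from 16021833 to 24074616 per library set the precision, and genes with few counts (Rps27, Rpl3l, Rps13) are known least well. Replicate counts differed beyond sampling noise, with no library deposited a second time.

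Genes were named by this rule: in each comparison, up to 10 largest rises and 10 largest falls among genes that passed and whose groups did not overlap; where none passed, the 3 with the smallest p; the 5 highest and 5 lowest FPKM; the stalk genes, genes with known roles outside the ribosome and paralog pairs; and for other lists the 4 largest changes each way with Zak and Mapk14. Some further genes are named from counts or for their copies, after their values were seen. Alternatives were RLE or library-size scaling, other count filters, DESeq2 1.42.0, a fit on all 12 libraries, a replicate block, pseudogene rows summed with the gene, a length trend removed, limma on log2 FPKM, the thresholds of the study (unadjusted p with a log2 change of at least 2), unadjusted p, and leaving out each library. Restricting to genes sharing less than 20% of their 50-base runs, a change of at least 0.5, and summing copy rows were added after seeing the data. A few genes that met the naming rule are not reported here, though they were tested and are in the counts.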

Additional observations from a re-analysis of the deposited data

How the results depend on the processing

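In LPS against Hyp 66 of 81 ribosomal protein genes passed (81.5%), against 75.8% of all genes. The thresholds of the study left 0 (1060 among all genes), and the genes with less than 20% shared runs gave 13 of 16 tested. A change of at least 0.5 left 37 of 81, against 6709 of all 13805 genes. Other settings gave 60 to 71, against 8720 to 11016 among all genes. With a library left out the count was 63 to 66, with 62 in every such fit (Rpl17, Rps13, Rps27 and Rps27l were lost in some). In LPS + M2-Exo against Hyp + M2-Exo the main count was 61 of 81 (75.3%), against 73.7% of all genes. The thresholds of the study left 1 (Rpl29, of 983 among all genes), and the less shared genes gave 13 of 16 tested. A change of at least 0.5 left 33 of 81, against 6717 of all 13660 genes. Other settings gave 56 to 68, against 8453 to 10619 among all genes. With a library left out the count was 56 to 62, with 56 in every such fit. In Hyp + M2-Exo against Hyp, where edgeR called 0, DESeq2 called 2 (37 among all genes) and an unadjusted p 17 (1171 among all genes). For the difference of exosome effects an unadjusted p gave 9 (1387 among all genes). Leaving out a library gave 0 for both exosome comparisons and for the difference. Same-numbered libraries were not paired, with correlations of their deviations between -0.0156 and 0.0594, and the replicate block gave 65 and 62 calls and 0 in the other comparisons.

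Directions turned where copies were summed. With named pseudogene rows and with all copy rows, in LPS against Hyp Rps2 went to -0.13 and -0.128, and Rpl27 to 0.292 and 0.293. With copy rows Rpl12 went to 0.212 and Rps27 to 0.882. In LPS + M2-Exo against Hyp + M2-Exo Rps2 went to -0.0396 and -0.0389, and Rpl27 to 0.327 and 0.328. Rpl12 went to 0.249 and Rps27 to 0.525. In LPS + M2-Exo against LPS Rps2 went to 0.0705 and 0.0703. The turn follows from the counts of the copy rows given above. DESeq2 gave Rps27 in LPS against Hyp an adjusted p of 0.0862. The median change in LPS against Hyp was 0.35 with library-size scaling and 0.51 with the length trend removed, and in the comparison with exosomes 0.29 and 0.48. With limma on log2 FPKM the median was 0.32 to 0.36, and 0.27 to 0.30 in the comparison with exosomes. The cause was not tested.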

Other observations

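Over the 12 libraries, the genes whose log2 CPM followed the mean of the ribosomal protein genes most closely were Sephs1 (r = 0.999), Tnrc6b, Tmpo, Zmym2 and Cdk19 (r from 0.996 to 0.997), none of which encodes a ribosomal protein. Of 5307 genes with a mean of at least 50 CPM, 1562 had r over 0.9. The libraries fall into an LPS and a Hyp set, which these correlations share, so they are given as a description.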
